A study of Mus musculus with 24 samples.

Results

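Chemokines are small secreted proteins that direct the migration of leukocytes, and they act on G-protein-coupled chemokine receptors. The family described here holds the protein-coding mouse genes whose symbols begin with Ccl, Cxcl, Ccr, Cxcr or Ackr followed by a number, together with Cx3cl1, Cx3cr1, Ccrl2, Pf4, Ppbp, Xcr1 and Xcl1. The rule used names and annotation only and no measured value. It found 70 of the 54532 annotated features in the count table, 46 of them ligands and 24 receptors. Of the 70 features, 60 had counts in at least 1 library and 40 passed the filter on low counts. Those 40, 27 ligands and 13 receptors, were the members tested among 14692 genes. The 10 features with no count were Ccl26, Ccl21c and copies of Ccl19, Ccl21a, Ccl21b and Ccl27, several of which lie on unplaced scaffolds and could not be told apart by symbol. Cxcl11, Ccl19-ps1 and Ccl19-ps3 are not annotated as protein-coding genes in the annotation used and were therefore not counted as members.

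The study measured polyadenylated RNA of mouse peritoneal macrophages, the resident phagocytes of the abdominal cavity, by RNA sequencing in 24 libraries. There were 6 groups of 4 replicates, and each replicate was a pool of cells from 2 to 3 mice. M1 macrophages received lipopolysaccharide (LPS, a bacterial cell wall component) with interferon-γ, M2 macrophages received interleukin 4 (IL4), and M0 macrophages were the control. Each state was measured with ONX-0914, an inhibitor of the immunoproteasome subunit LMP7 that is encoded by Psmb8, and without it. The labels used here state no strain, age, dose or duration of treatment. The groups are called M1 + ONX-0914, M1, M2 + ONX-0914, M2, M0 + ONX-0914 and M0 in what follows. Two-sided p-values come from edgeR's quasi-likelihood test and were adjusted by the Benjamini-Hochberg method over all 14692 genes, and "called" means an adjusted p under 0.05. These p-values measure the spread between the pooled replicates, and the labels do not say on which days the pools were made.

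Macrophages both send and receive chemokine signals. After stimulation through Toll-like receptors and the interferon-γ receptor they release ligands that attract neutrophils (the CXC chemokines with a glutamate-leucine-arginine motif, called ELR chemokines), monocytes (the ligands of Ccr2) and activated T cells (the ligands of Cxcr3). After IL4 they are known for ligands of Ccr3 and Ccr4, which attract eosinophils and helper T cells of the allergic type. Typical receptors signal through inhibitory G proteins, whereas atypical receptors bind chemokines without that signalling and remove or present them.

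Library totals lay between 18230924 and 22882972 counts. All 11 macrophage marker genes examined, Adgre1, Cd68, Csf1r and Lyz2 among them, had counts in every group, and their summed level lay between 9378 and 14780 CPM (the counts-per-million scale) in every library. Levels are CPM after edgeR's trimmed-mean (TMM) scaling, and the 4 values of a group are given in the order of replicates 1 to 4. M1 replicate 2 stood apart from the other libraries of its group. Mitochondrial genes took 0.3% of its counts, against 1.07 to 1.14% in the other 3 M1 libraries, and its 10 most abundant genes took 13.1%, against 10.3 to 10.4%. Calls given below that change without this library are marked where they stand. Markers of other cells were present. B cell markers, for example, summed to 40.8 to 45.9 CPM in M1 + ONX-0914 and 81.2 to 94.1 CPM in M1. Mesothelial and fibroblast markers summed to more, between 728 and 1106 CPM in every library. In bulk RNA, fewer cells of a type and less RNA per cell cannot be told apart.

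Much of the family is arranged in gene clusters. On the mouse build GRCm38 (mm10), Ccl2, Ccl7, Ccl11, Ccl12 and Ccl8 lie in that order on chromosome 11 between bases 82035571 and 82116799, and Ccl5, Ccl9, Ccl6, Ccl3 and Ccl4 between bases 83525778 and 83664683 of the same chromosome. Cxcl5, Pf4, Cxcl3, Cxcl1 and Cxcl2 lie between bases 90759360 and 90905938 of chromosome 5, and Cxcl9 and Cxcl10 between bases 92321347 and 92348889. The 4 promoters shown belong to ligands called higher in M1 whose windows hold 2 separate matches to a kappaB-type motif, the binding motif of NF-κB. Each is a 300-base window around the annotated start, taken from RefSeq on build GRCm38.p6 and written 5′ to 3′ on the gene's strand. Capitals mark matches on either strand to GGG, any 2 bases, TTTCC, to its looser form GGG, any 3 bases, TTCC (overlapping matches run together), and, in Cxcl10 only, also to the interferon-stimulated response element GAAA, any 2 bases, GAAA.
Cxcl1 (plus strand, chr5:90890995-90891294): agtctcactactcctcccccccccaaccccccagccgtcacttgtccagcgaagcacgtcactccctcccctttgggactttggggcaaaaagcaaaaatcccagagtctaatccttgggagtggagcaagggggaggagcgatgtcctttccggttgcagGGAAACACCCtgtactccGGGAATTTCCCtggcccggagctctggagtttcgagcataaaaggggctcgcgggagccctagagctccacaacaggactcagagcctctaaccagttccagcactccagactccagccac
Cxcl2 (plus strand, chr5:90903649-90903948): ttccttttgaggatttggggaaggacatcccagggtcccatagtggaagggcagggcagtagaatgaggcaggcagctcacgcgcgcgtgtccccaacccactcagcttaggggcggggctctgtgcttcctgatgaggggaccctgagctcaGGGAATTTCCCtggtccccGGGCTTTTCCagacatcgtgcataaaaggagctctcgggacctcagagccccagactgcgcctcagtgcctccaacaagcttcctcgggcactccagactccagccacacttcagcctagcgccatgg
Cxcl3 (plus strand, chr5:90785851-90786150): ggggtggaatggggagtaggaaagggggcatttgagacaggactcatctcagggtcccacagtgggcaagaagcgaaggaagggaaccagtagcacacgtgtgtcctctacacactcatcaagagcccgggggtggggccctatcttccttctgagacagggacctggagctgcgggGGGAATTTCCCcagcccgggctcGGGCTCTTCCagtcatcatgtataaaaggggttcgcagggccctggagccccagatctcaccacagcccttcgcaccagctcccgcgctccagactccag
Cxcl10 (minus strand, chr5:92348840-92349139): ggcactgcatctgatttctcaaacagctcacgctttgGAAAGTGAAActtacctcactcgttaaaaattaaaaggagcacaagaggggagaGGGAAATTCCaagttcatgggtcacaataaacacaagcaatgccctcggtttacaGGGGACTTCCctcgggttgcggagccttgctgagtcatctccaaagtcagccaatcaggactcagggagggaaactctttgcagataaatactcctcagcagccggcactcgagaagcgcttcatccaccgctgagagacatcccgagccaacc
The Cxcl1 runs lie at -89 to -80 and -71 to -61, those of Cxcl2 at -97 to -87 and -78 to -69, and those of Cxcl3 at -73 to -63 and -50 to -41, counted from the start, and the second Cxcl3 run is a looser match. Cxcl10 has looser matches at -159 to -150 and -104 to -95 and the interferon-stimulated response element at -213 to -204. A window was found for 29 of the 40 tested members. The strict kappaB motif occurred in 4 of the 16 such members that were called higher in M1 than in M0 and in 0 of the 10 called lower, against 1.63% of all 32851 windows, and the looser form in 5 of the 16, against 5.56%. The 4 were Cxcl1, Cxcl2, Cxcl3 and Ccl9. The first 3 lie in the same gene cluster and share the match GGGAATTTCC, so they are not independent cases. A member with several windows was counted if any window matched, whereas the shares are over single windows. The response element occurred in 1 of the 16 and 1 of the 10, against 3.44% of all windows, and the interferon-γ-activated motif (TTC, any 3 bases, GAA) in 0 of the 16 and 1 of the 10, against 8.3%. A match is a description of the letters and not of a bound site.

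The family took 0.966 ± 0.0249% of all counts in M1 + ONX-0914, 0.873 ± 0.0547% in M1, 0.128 ± 0.00746% in M2 + ONX-0914, 0.146 ± 0.00774% in M2, 0.121 ± 0.00187% in M0 + ONX-0914 and 0.118 ± 0.00297% in M0 (SD, n = 4 each). M1 polarization called 22 of the 40 members higher and 11 lower than in M0, where 34.6% of all genes tested were called higher, 34.2% lower and 68.8% either way. The median log2 change of the members was 1.54, against -0.02 over all genes. M2 polarization called 9 members higher and 14 lower than in M0, where 18.7% of all genes were called higher, 17.5% lower and 36.2% either way. Libraries did not overlap for 33 members in M1 against M0 and 25 in M2 against M0, where this held for 58.1% and 37.9% of all genes. The median there was -0.04 for members and 0.01 over all genes. The ligands carried most of the rise in M1, with 18 of 27 called higher and 4 lower, whereas of the 13 receptors 4 were called higher and 7 lower. In M2, 8 ligands were called higher and 7 lower, and 1 receptor higher and 7 lower.

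With ONX-0914, members were called in both directions, as were genes in general. In M1 + ONX-0914, 9 of the 40 members were called higher and 11 lower than in M1, where 16.6% of all genes were called higher, 27.7% lower and 44.3% either way. Without M1 replicate 2 these counts were 10 and 12, with Xcr1 (log2 change 1.03, edgeR adjusted p = 0.0368) and Ccl7 added. In M2 + ONX-0914, 10 members were called higher and 6 lower than in M2, where 17.6% of all genes were called higher, 18.8% lower and 36.4% either way. In M0 + ONX-0914, 7 were called higher and 4 lower than in M0, where 9.54% of all genes were called higher, 11.4% lower and 21.0% either way, and without M0 replicate 2 the count of lower members was 2. The median log2 change of the members was 0.01 in M1, 0.14 in M2 and 0.02 in M0, against -0.081, -0.001 and -0.001 over all genes. Fitting M1 + ONX-0914 and M1 libraries alone gave 11 members higher and 10 lower, and 2481 genes higher and 2303 lower over all, where the fit of all 24 libraries gave 2438 and 4076.

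Measured per kilobase of exon, the leading ligand differed between M1 and the other states. Ccl5 led in both M1 groups, at 2752 CPM per kb in M1 + ONX-0914 and 2814 in M1, followed by Ccl2 at 1328 in M1 + ONX-0914 and 1093 in M1. Ccl6 led in the other 4 groups, at 227 CPM per kb in M2 + ONX-0914, 388 in M2, 197 in M0 + ONX-0914 and 205 in M0. Among the receptors Ccrl2 led in M1 + ONX-0914 at 359, in M1 at 421 and in M0 at 76.4 CPM per kb. Cxcr4 led in M2 + ONX-0914 at 52.7, in M2 at 42.8 and in M0 + ONX-0914 at 63.5 CPM per kb.

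**Figure D1:**
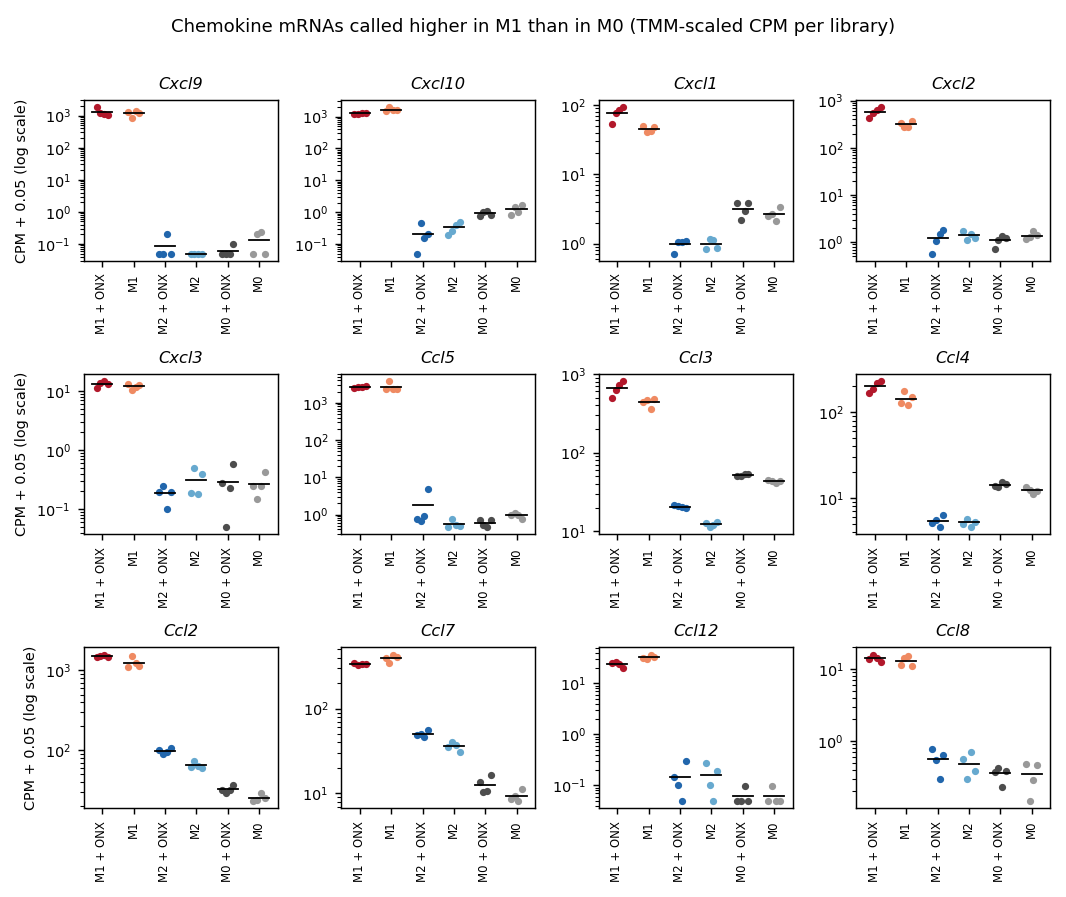
Levels of 12 ligands called higher in M1 than in M0. Each point is 1 library in TMM-scaled CPM plus 0.05 on a log axis, bars are group means, and groups run from M1 + ONX-0914 on the left to M0 on the right. Cxcl9, Cxcl10 and Ccl5 lie at 853 CPM or more in every M1 library and at 4.76 CPM or less in every M2 and M0 library, with or without ONX-0914.

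The ligands of Cxcr3 attract activated T cells and natural killer cells. Among them, Cxcl9 had the largest log2 change of the tested members in M1 against M0. Cxcl9 stood at 1293, 853, 1422 and 1242 CPM in M1, against 0, 0.147, 0.193 and 0 CPM in M0. The 4 M1 libraries lay far above every M0 library, where the gene had 7 counts in all. The log2 change was 13.74 ± 0.32 (SE, edgeR adjusted p = 9.37e-22), and 14.49 without M0 replicate 3. The SE of every log2 change here was back-calculated, as the change divided by the square root of edgeR's F statistic. Such an SE can be too small where a group has few counts, as M0 has for Cxcl9. Cxcl9 had no count in M2, which is at least 2.32-fold lower than in M0 by a floor of 3 counts over the group. That change was not called, and M0 replicates 1 and 4 had no count either. It passed in the DESeq2 Wald test (log2 change -3.27, adjusted p = 0.0186) and with no filter on low counts (-3.80, edgeR adjusted p = 0.0149). Cxcl10 stood at 1454, 1935, 1628 and 1616 CPM in M1, against 0.772, 1.37, 0.966 and 1.66 CPM in M0, again with no overlap, a log2 change of 10.42 ± 0.17 (edgeR adjusted p = 3.51e-27). In M2 it was at 0.138, 0.2, 0.347 and 0.434 CPM, below all 4 M0 libraries, and fell by 2.08 ± 0.36 on the log2 scale (edgeR adjusted p = 4.09e-05).

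ONX-0914 left Cxcl9 without a called change in M1. Its levels were 1806, 1237, 1169 and 1061 CPM in M1 + ONX-0914, with a log2 change of 0.13 ± 0.15 against M1 (edgeR adjusted p = 0.5). The groups overlapped, and M1 + ONX-0914 replicate 1 was the highest of all 8 libraries. It had 3 counts in M2 + ONX-0914 and 1 count in M0 + ONX-0914. Cxcl10 was lower, at 1222, 1201, 1310 and 1340 CPM in M1 + ONX-0914, each below the lowest M1 library. The log2 change was -0.39 ± 0.10 (edgeR adjusted p = 0.00215). It was at 0, 0.402, 0.0993 and 0.149 CPM in M2 + ONX-0914 and 0.698, 0.991, 1 and 0.759 CPM in M0 + ONX-0914, and was called in neither. Reads of Cxcl10 may include some of the overlapping gene Art3, which had 67 counts over all libraries, since no source used here says whether the counting used strand.

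The ELR chemokines, which act on Cxcr2 and attract neutrophils, were raised in M1, with 3 of the 4 tested called higher. Cxcl2 stood at 343, 275, 271 and 375 CPM in M1, against 1.11, 1.23, 1.64 and 1.37 CPM in M0 (log2 change 7.88 ± 0.20, edgeR adjusted p = 6.34e-23). Cxcl1 was at 50, 41.1, 42.3 and 47.8 CPM in M1, against 2.41, 2.6, 2.08 and 3.27 CPM in M0 (log2 change 4.12 ± 0.16, edgeR adjusted p = 1.82e-18). Cxcl3 was at 12.9, 10.1, 11.7 and 12.4 CPM in M1, against 0.193, 0.0981, 0.193 and 0.373 CPM in M0 (log2 change 5.70 ± 0.29, edgeR adjusted p = 5.92e-16). In these 3 genes no M1 library came within a factor of 10 of an M0 library. Cxcl5, also called LIX, was the exception, at 36.4, 24, 34.6 and 46.2 CPM in M1, against 32, 25, 24 and 36.5 CPM in M0. These groups overlapped, and the log2 change of 0.26 ± 0.16 was not called (edgeR adjusted p = 0.15), although it reached 0.41 (edgeR adjusted p = 0.0106) without M1 replicate 2 and 0.39 (edgeR adjusted p = 0.0479) without M0 replicate 4.

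In M2 the ELR chemokines were either called lower (Cxcl1 and Cxcl5) or not called (Cxcl2 and Cxcl3). Cxcl5 stood at 4.4, 4.8, 3.99 and 3.23 CPM in M2, below all M0 libraries, with a log2 change of -2.84 ± 0.20 (edgeR adjusted p = 3.67e-12). Cxcl1 was at 0.78, 1.1, 1.08 and 0.82 CPM in M2, also below all M0 libraries (log2 change -1.46 ± 0.26, edgeR adjusted p = 5.3e-05). Cxcl2 had a log2 change of 0.02 ± 0.33 and Cxcl3 one of 0.22 ± 0.54, and neither was called. Ppbp and Cxcl15, the remaining ELR members, had 1 count each over all 24 libraries.

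ONX-0914 raised 3 of these 4 ELR chemokines in M1. They were Cxcl2 and Cxcl1, which were also called higher in M1 than in M0, and Cxcl5, which was not. Cxcl2 stood at 435, 544, 639 and 716 CPM in M1 + ONX-0914, each above the highest M1 library of 375 CPM, a log2 change of 0.89 ± 0.13 (edgeR adjusted p = 1.97e-06). Cxcl1 was at 53.4, 75.6, 83.3 and 91.9 CPM in M1 + ONX-0914, also above all M1 libraries, and its log2 change was 0.74 ± 0.12 (edgeR adjusted p = 1.84e-05). Replicate 1 of M1 + ONX-0914 was the lowest of its group for Cxcl1, Cxcl2, Ccl3 and Ccl4. Cxcl5 was at 48.8, 58.5, 52.7 and 57 CPM in M1 + ONX-0914, above all M1 libraries (log2 change 0.62 ± 0.16, edgeR adjusted p = 0.00239). Cxcl3 was at 11.2, 13.5, 14.6 and 13.1 CPM in M1 + ONX-0914, which overlapped the M1 range of 10.1 to 12.9 CPM, and its log2 change of 0.15 ± 0.17 was not called (edgeR adjusted p = 0.529).

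Outside M1, 1 ELR chemokine was called under ONX-0914. In M2 the called member was Cxcl5, at 6.83, 5.68, 7.25 and 6.5 CPM in M2 + ONX-0914, above all 4 M2 libraries (log2 change 0.68 ± 0.22, edgeR adjusted p = 0.0179), and without M2 replicate 4 it was not called (0.58, edgeR adjusted p = 0.0636). Cxcl1 was at 0.668, 1, 0.993 and 1.04 CPM in M2 + ONX-0914 and 3.77, 2.17, 2.88 and 3.79 CPM in M0 + ONX-0914. Cxcl2 was at 0.525, 1, 1.44 and 1.79 CPM in M2 + ONX-0914, against 1.7, 1.05, 1.47 and 1.16 CPM in M2, and at 0.651, 1.09, 1.32 and 1.19 CPM in M0 + ONX-0914. Cxcl3 was at 0.143, 0.201, 0.0497 and 0.149 CPM in M2 + ONX-0914, against 0.138, 0.45, 0.13 and 0.338 CPM in M2, and at 0.233, 0, 0.183 and 0.522 CPM in M0 + ONX-0914. Cxcl5 was at 40.4, 25.5, 27.3 and 41.5 CPM in M0 + ONX-0914 and was not called (log2 change 0.19 ± 0.16, edgeR adjusted p = 0.435). Each of these groups overlapped the one without ONX-0914, apart from Cxcl5 in M2. The difference between the ONX-0914 effect in M1 and that in M0 was called for Cxcl2 (1.22 ± 0.37 on the log2 scale, edgeR adjusted p = 0.0192). It was lost without M0 replicate 3 (1.11, edgeR adjusted p = 0.0581) and without M0 + ONX-0914 replicate 1 (1.04, edgeR adjusted p = 0.0554). For Cxcl1 that difference was 0.47 ± 0.24 and was not called (edgeR adjusted p = 0.185), although it passed without M1 + ONX-0914 replicate 1 (0.61, edgeR adjusted p = 0.035). Mesothelial and fibroblast markers, which name another possible source of Cxcl1 and Cxcl5 in peritoneal cells, summed to 777 to 889 CPM in M1 + ONX-0914 and 778 to 974 CPM in M1, and their part in these results was not tested.

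The ligands of Ccr2, which attract monocytes, were all called higher in M1. Ccl2 stood at 1105, 1501, 1232 and 1137 CPM in M1, against 23.4, 24, 28.9 and 25.5 CPM in M0 (log2 change 5.61 ± 0.10, edgeR adjusted p = 5.32e-26). Ccl7 was at 395, 345, 435 and 405 CPM in M1, against 8.44, 9.27, 8.16 and 11.3 CPM in M0 (log2 change 5.40 ± 0.12, edgeR adjusted p = 5.69e-24). Ccl8 was at 11.3, 14.2, 15.3 and 11 CPM in M1, against 0.434, 0.0981, 0.241 and 0.414 CPM in M0 (log2 change 5.40 ± 0.24, edgeR adjusted p = 2.08e-17). Every M1 library lay above every M0 library in these 3 genes. Ccl12, a mouse ligand of Ccr2, had 2080 counts in M1, at 31.9, 29.7, 36.6 and 32.5 CPM, against 1 count in M0, which gives a ratio of 2823 (95% interval 506.1 to 111500, counting error only).

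Ccl2 and Ccl7 were also higher in M2, which the other Ccr2 ligands were not by this test. Ccl2 stood at 61.9, 73.4, 63.9 and 60.3 CPM in M2, above all M0 libraries (log2 change 1.35 ± 0.09, edgeR adjusted p = 2.42e-12). Ccl7 was at 34.9, 40.5, 37.2 and 31.1 CPM in M2, also above all M0 libraries (log2 change 1.95 ± 0.12, edgeR adjusted p = 2.67e-13). With the M1 values, the order of both genes was M1, then M2, then M0, with no overlap between neighbours. Ccl8 was at 0.436 ± 0.178 CPM in M2 and 0.297 ± 0.158 CPM in M0, and Ccl12 had 9 counts in M2 and 1 in M0, a call that missed the threshold (edgeR adjusted p = 0.059) and passed without M1 replicate 2 (edgeR adjusted p = 0.0476).

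ONX-0914 raised Ccl2 in each state. It stood at 1489, 1495, 1580 and 1482 CPM in M1 + ONX-0914, where M1 replicate 2 at 1501 CPM lay within that range and the other 3 M1 libraries below it (log2 change 0.28 ± 0.08, edgeR adjusted p = 0.00677, and 0.38 without M1 replicate 2). Levels were 101, 90.5, 94.3 and 107 CPM in M2 + ONX-0914, above all M2 libraries (log2 change 0.60 ± 0.09, edgeR adjusted p = 3.19e-06). In M0 + ONX-0914 they were 32.2, 29.4, 31.6 and 36.6 CPM, above all M0 libraries (log2 change 0.35 ± 0.09, edgeR adjusted p = 0.00747). Differences between the states in this effect were not called. That between M1 and M2 passed without M1 replicate 1 (-0.37, edgeR adjusted p = 0.0386) and without M2 replicate 2 (-0.39, edgeR adjusted p = 0.0344). It also passed with no filter on low counts (-0.30, edgeR adjusted p = 0.0395).

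Ccl7 and Ccl12, neighbours of Ccl2, did not follow it in M1. Ccl7 was at 342, 329, 339 and 332 CPM in M1 + ONX-0914, each below the lowest M1 library of 345 CPM, and the log2 change of -0.23 ± 0.10 missed the threshold (edgeR adjusted p = 0.0508). Without M1 replicate 2 it passed (-0.29, edgeR adjusted p = 0.003). In M2 + ONX-0914 Ccl7 was at 48.3, 49.9, 45.7 and 55.3 CPM, above all M2 libraries (log2 change 0.47 ± 0.10, edgeR adjusted p = 0.000743). In M0 + ONX-0914 it was at 13.6, 10.3, 10.6 and 16.3 CPM, which overlapped M0 (log2 change 0.44 ± 0.13, edgeR adjusted p = 0.0119), and without M0 + ONX-0914 replicate 4 it was not called (0.30, edgeR adjusted p = 0.0842). The effect in M1 differed from that in M0 by -0.68 ± 0.16 (edgeR adjusted p = 0.00274) and from that in M2 by -0.71 ± 0.14 (edgeR adjusted p = 0.000924). Ccl12 fell to 25.1, 25.9, 23.5 and 20.4 CPM in M1 + ONX-0914, below all M1 libraries (log2 change -0.46 ± 0.13, edgeR adjusted p = 0.00382). Ccl8 was at 14.0, 15.9, 14.2 and 12.5 CPM in M1 + ONX-0914, overlapped M1 and was called in no state under ONX-0914, with 0.716, 0.502, 0.248 and 0.595 CPM in M2 + ONX-0914 and 0.326, 0.377, 0.183 and 0.332 CPM in M0 + ONX-0914.

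The ligands Ccl3, Ccl4, Ccl5, Ccl6 and Ccl9 divided by state. Ccl3, Ccl4 and Ccl5, which attract monocytes and T cells, were called higher in M1, and Ccl3 and Ccl4 lower in M2. Ccl5 stood at 2308, 3824, 2309 and 2364 CPM in M1, against 0.917, 1.08, 0.918 and 0.704 CPM in M0 (log2 change 11.55 ± 0.33, edgeR adjusted p = 7.24e-22), and M1 replicate 2 was the highest library. Ccl3 was at 443, 470, 360 and 484 CPM in M1, against 44.8, 43.4, 41.2 and 43.6 CPM in M0 (log2 change 3.34 ± 0.11, edgeR adjusted p = 1.34e-20). Ccl4 was at 127, 177, 121 and 150 CPM in M1, against 13.5, 12.3, 11.2 and 12.1 CPM in M0 (log2 change 3.55 ± 0.11, edgeR adjusted p = 1.35e-20). No M1 and M0 libraries overlapped in these 3 genes. In M2, Ccl3 stood at 12.9, 11.3, 12.1 and 13.2 CPM (log2 change -1.81 ± 0.11 against M0, edgeR adjusted p = 5.43e-13) and Ccl4 at 4.95, 5.7, 4.59 and 5.26 CPM (log2 change -1.26 ± 0.14, edgeR adjusted p = 2.58e-08), all below the M0 libraries. Ccl5 was at 0.506 ± 0.132 CPM in M2 and 0.904 ± 0.154 CPM in M0 and was not called (edgeR adjusted p = 0.34).

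Ccl6 and Ccl9, rodent chemokines that act on Ccr1, differed from those 3. Ccl6 stood at 650, 772, 691 and 670 CPM in M2, against 346, 423, 375 and 327 CPM in M0 (log2 change 0.92 ± 0.08, edgeR adjusted p = 2.04e-10). In M1 it was at 207, 195, 213 and 192 CPM, a log2 change of -0.87 ± 0.08 against M0 (edgeR adjusted p = 1.19e-10). The 3 states did not overlap, with M2 highest and M1 lowest, which is the reverse of Ccl3 and Ccl4. Ccl9 was at 166, 142, 134 and 162 CPM in M1 and 116, 133, 118 and 116 CPM in M2, against 30.7, 29.7, 27 and 27.1 CPM in M0. It was called higher in both (log2 change 2.40 ± 0.12, edgeR adjusted p = 4.78e-16 in M1, and 2.08 ± 0.12, edgeR adjusted p = 1.15e-13 in M2).

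Under ONX-0914, Ccl3 rose in M1 and M2. It stood at 497, 619, 719 and 812 CPM in M1 + ONX-0914, above all M1 libraries (log2 change 0.59 ± 0.10, edgeR adjusted p = 1.39e-05), and at 21.3, 20.7, 20.6 and 19.7 CPM in M2 + ONX-0914, above all M2 libraries (log2 change 0.73 ± 0.12, edgeR adjusted p = 1.41e-05). In M0 + ONX-0914 it was at 50.3, 50.3, 53.1 and 54.3 CPM, above all M0 libraries, with a log2 change of 0.26 ± 0.10 that missed the threshold (edgeR adjusted p = 0.0693). It passed in the fit of M0 + ONX-0914 and M0 libraries alone (0.27, edgeR adjusted p = 0.000497) and, among the fits that left out 1 library, without M1 replicate 2 or 3 or M1 + ONX-0914 replicate 1 or 4 (edgeR adjusted p = 0.021 to 0.0473), and with no filter on low counts (edgeR adjusted p = 0.0126). Ccl4 was at 168, 189, 219 and 231 CPM in M1 + ONX-0914, of which replicate 1 lay below M1 replicate 2 (log2 change 0.49 ± 0.10, edgeR adjusted p = 0.000155). It was at 5.01, 5.48, 4.52 and 6.3 CPM in M2 + ONX-0914 and 13.6, 13.3, 15.3 and 14.5 CPM in M0 + ONX-0914, and was called in neither (0.06 ± 0.15 in M2 and 0.21 ± 0.12 in M0).

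Ccl9 rose under ONX-0914 in all 3 states. Levels were 227, 236, 258 and 263 CPM in M1 + ONX-0914 (log2 change 0.70 ± 0.11, edgeR adjusted p = 9.87e-06), 148, 197, 180 and 269 CPM in M2 + ONX-0914 (0.72 ± 0.11, edgeR adjusted p = 1.11e-05) and 73.9, 61.4, 63.6 and 65.7 CPM in M0 + ONX-0914 (1.21 ± 0.12, edgeR adjusted p = 2.07e-08). None of these libraries overlapped those of the same state without ONX-0914. The effect in M1 was smaller than that in M0 (difference -0.50 ± 0.16 on the log2 scale, edgeR adjusted p = 0.0302). That difference was not called without M0 replicate 3 or 4, M0 + ONX-0914 replicate 1, M1 replicate 1 or 4, or M1 + ONX-0914 replicate 1 or 2 (-0.48 to -0.45, edgeR adjusted p = 0.0553 to 0.0715).

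Ccl6 moved the other way. It fell to 370, 442, 431 and 387 CPM in M2 + ONX-0914, against 650 to 772 CPM in M2 (log2 change -0.77 ± 0.08, edgeR adjusted p = 6.47e-09), and to 153, 172, 175 and 153 CPM in M1 + ONX-0914, below all M1 libraries (-0.30 ± 0.08, edgeR adjusted p = 0.00232). With ONX-0914 in M0 it was at 346, 379, 373 and 320 CPM, overlapped M0 and was not called (-0.05 ± 0.08). The effect in M2 differed from that in M0 by -0.72 ± 0.11 (edgeR adjusted p = 0.000103), and that in M1 from that in M2 by 0.47 ± 0.11 (edgeR adjusted p = 0.00393). Ccl5 in M1 + ONX-0914 stood at 2492, 2633, 2676 and 2768 CPM, between the 3 lower M1 libraries and M1 replicate 2, and was not called (-0.03 ± 0.19). In M2 + ONX-0914 it was at 0.716, 0.603, 0.894 and 4.76 CPM, and its call there (log2 change 1.78 ± 0.56, edgeR adjusted p = 0.0133) was lost without replicate 4 of that group (0.55, edgeR adjusted p = 0.351). In M0 + ONX-0914 it was at 0.651, 0.472, 0.411 and 0.664 CPM.

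The ligands of Ccr4 and Ccr3 were low. Ccl22, a ligand of Ccr4 that attracts regulatory and helper T cells, stood at 24, 25.6, 21.5 and 22.2 CPM in M1, against 2.51, 3.97, 2.32 and 3.23 CPM in M0 (log2 change 2.95 ± 0.21, edgeR adjusted p = 6.56e-13). In M2 it was at 4.72, 4.8, 2.64 and 4.68 CPM, overlapped M0 and was not called (0.48 ± 0.23, edgeR adjusted p = 0.116). Without M2 replicate 3 the M2 change passed (0.65, edgeR adjusted p = 0.0293). ONX-0914 lowered it in M1, to 18.7, 13.2, 19 and 12.8 CPM in M1 + ONX-0914, below all M1 libraries (-0.54 ± 0.18, edgeR adjusted p = 0.0136). That call was lost without M1 + ONX-0914 replicate 2 (-0.46, edgeR adjusted p = 0.0549) or replicate 4 (-0.45, edgeR adjusted p = 0.0595). It was at 2.91, 2.56, 2.09 and 4.42 CPM in M2 + ONX-0914 and 3.07, 2.55, 1.32 and 2.32 CPM in M0 + ONX-0914 and was called in neither, although without M2 replicate 3 (-0.66, edgeR adjusted p = 0.0289) or M2 + ONX-0914 replicate 4 (-0.73, edgeR adjusted p = 0.024) it passed in M2.

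Ccl11 and Ccl24, the eotaxins, act on Ccr3 and attract eosinophils, and both were called higher in M2 while staying under 5 CPM. Ccl11 averaged 2.51 ± 0.257 CPM in M2 and 0.12 ± 0.117 CPM in M0 (SD, n = 4 each, edgeR adjusted p = 7.01e-10). Ccl24 averaged 1.67 ± 0.222 CPM in M2 and 0.199 ± 0.0662 CPM in M0 (edgeR adjusted p = 6.99e-06). Neither was called in M1 against M0 or under ONX-0914. Ccl11 passed in M1 without M0 replicate 2 or 3 or M1 replicate 4 (log2 change 1.48 to 1.80). There it also passed in the DESeq2 Wald test (1.28, adjusted p = 0.0472). In M0 + ONX-0914 against M0 it had 1 count and 10 counts. That change passed when any of 7 libraries was left out, M1 replicate 2 among them (edgeR adjusted p = 0.0408). DESeq2 size factors (edgeR adjusted p = 0.0491) and the DESeq2 Wald test (adjusted p = 0.0346) made it pass too. The fit of M2 + ONX-0914 and M2 libraries alone called Ccl11 higher with ONX-0914 (0.46, edgeR adjusted p = 0.0243). Ccl17, a further ligand of Ccr4, was below the filter with 54 counts in all, 27 of them in M2 and 2 in M0, a ratio of 13.6 (95% counting interval 3.41 to 117.6). These members were named after their values were seen, because they are the ligands for which IL4-treated macrophages are known.

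**Figure D2:**
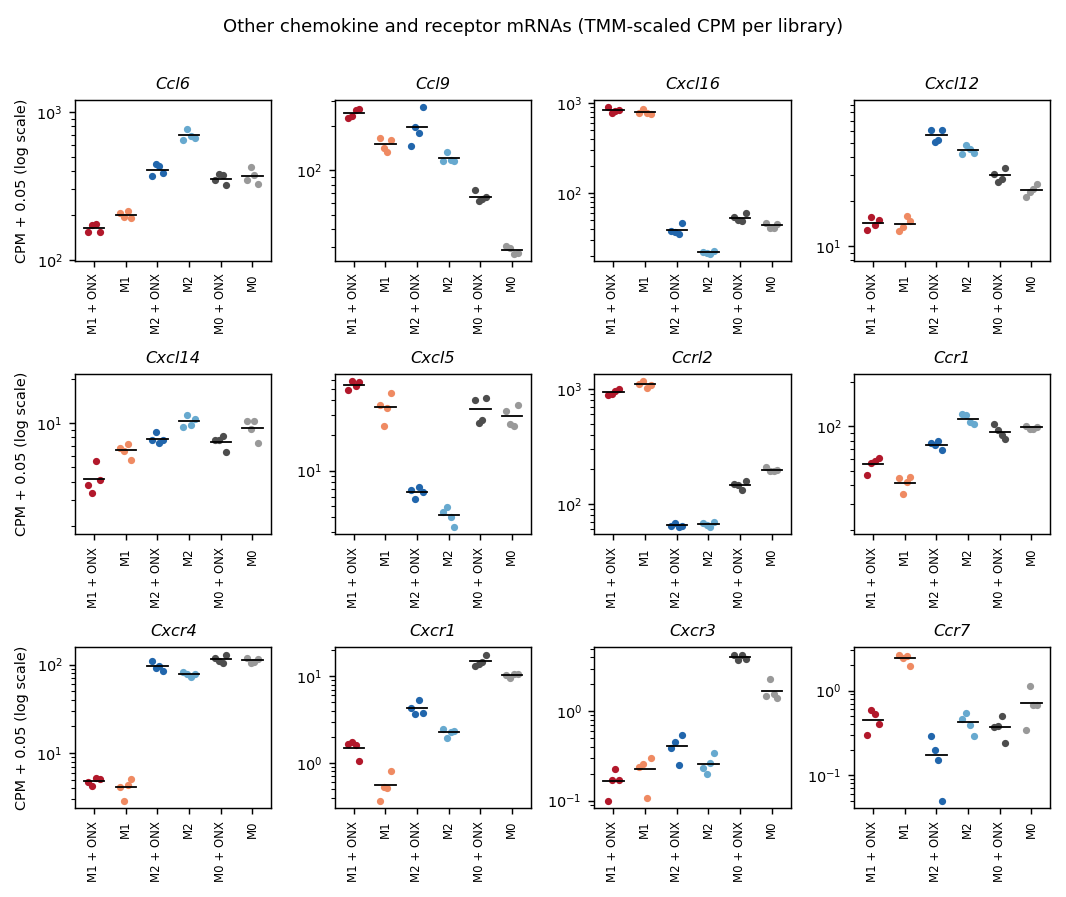
Levels of 6 further ligands and 6 receptors. Each point is 1 library in TMM-scaled CPM plus 0.05 on a log axis, bars are group means, and groups run from M1 + ONX-0914 on the left to M0 on the right. Ccl6 is highest in M2, Cxcr4 is at 5.16 CPM or less in every M1 library, and Cxcr1 is higher with ONX-0914 than without it in each state.

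Among the other ligands, Cxcl16 was the most changed. It binds Cxcr6 and is also a scavenger receptor for oxidised lipoprotein, and it lies on chromosome 11 (bases 70453983 to 70459984, minus strand). It stood at 771, 862, 772 and 764 CPM in M1, against 46.8, 40.5, 41.3 and 45.6 CPM in M0 (log2 change 4.18 ± 0.08, edgeR adjusted p = 2.11e-25), and at 21.8, 21.7, 21.2 and 22.6 CPM in M2 (-0.997 ± 0.0792 against M0, edgeR adjusted p = 6.8e-11). The 3 states did not overlap. ONX-0914 raised it to 38.1, 37, 35.3 and 46.3 CPM in M2 + ONX-0914 (0.84 ± 0.08, edgeR adjusted p = 2.35e-09) and to 54.4, 49.7, 48.8 and 59.6 CPM in M0 + ONX-0914 (0.29 ± 0.08, edgeR adjusted p = 0.00745), in both cases above all libraries without it. In M1 + ONX-0914 it was at 896, 781, 826 and 835 CPM, overlapped M1 and was not called (0.07 ± 0.07, edgeR adjusted p = 0.418). The effect in M2 differed from that in M0 by 0.56 ± 0.11 (edgeR adjusted p = 0.00168) and the effect in M1 from that in M2 by -0.77 ± 0.11 (edgeR adjusted p = 1.07e-05). Zmynd15, which overlaps its exons on the other strand, had 4459 counts, against 122375 for Cxcl16.

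Cxcl12, Cxcl13 and Cxcl14 are homeostatic chemokines. Cxcl12, the ligand of Cxcr4, stood at 41.5, 47.8, 45 and 42.2 CPM in M2 and 12.5, 13.3, 15.8 and 14.7 CPM in M1, against 21.3, 23.1, 24.2 and 26.2 CPM in M0. It was called higher in M2 (log2 change 0.89 ± 0.09, edgeR adjusted p = 2.82e-09) and lower in M1 (-0.75 ± 0.09, edgeR adjusted p = 6.57e-08), with no overlap. With ONX-0914 it was at 60.6, 50.6, 52.2 and 61 CPM in M2 + ONX-0914 (0.35 ± 0.08, edgeR adjusted p = 0.00154) and 30.7, 26.8, 28.3 and 33.6 CPM in M0 + ONX-0914 (0.33 ± 0.09, edgeR adjusted p = 0.00716), above all libraries without it, and it was not called in M1, where M1 + ONX-0914 was at 12.7, 15.6, 13.7 and 15 CPM (0.01 ± 0.10). Cxcl14 was at 6.69, 6.44, 7.16 and 5.6 CPM in M1 and 9.4, 11.3, 9.66 and 10.7 CPM in M2, against 10.2, 9.02, 10.3 and 7.25 CPM in M0. It was called lower in M1 (-0.50 ± 0.13, edgeR adjusted p = 0.00119) and not called in M2. ONX-0914 lowered it to 3.75, 3.3, 5.46 and 4.09 CPM in M1 + ONX-0914 (-0.65 ± 0.14, edgeR adjusted p = 0.000563) and to 7.59, 8.59, 7.25 and 7.64 CPM in M2 + ONX-0914 (-0.40 ± 0.12, edgeR adjusted p = 0.0112), in both cases below all libraries without it. Cxcl14 in M0 + ONX-0914 was at 7.58, 7.6, 8.08 and 6.35 CPM, overlapped M0 and was not called (-0.31 ± 0.12, edgeR adjusted p = 0.0762).

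Stromal cells are a known source of Cxcl12 and Cxcl14. Mesothelial and fibroblast markers, all 11 with counts in each group, summed to 801 to 944 CPM in M2 + ONX-0914, 728 to 911 CPM in M2, 955 to 1106 CPM in M0 + ONX-0914 and 795 to 1045 CPM in M0. Of the 11, 2 were called higher and 5 lower in M1, and 2 higher and 4 lower in M2. Of all genes tested, 34.6% were called higher and 34.2% lower in M1, and 18.7% and 17.5% in M2. Their part in the changes of these ligands was not tested.

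Cxcl13, the ligand of Cxcr5 that guides B cells, stood at 9.3, 5.95, 7.57 and 8.31 CPM in M1, against 4.82, 5.79, 3.67 and 4.43 CPM in M0 (log2 change 0.74 ± 0.17, edgeR adjusted p = 0.000522). It fell to 3.3, 4.02, 2.37 and 3.5 CPM in M1 + ONX-0914, below all M1 libraries (-1.24 ± 0.19, edgeR adjusted p = 3.8e-06). In M0 + ONX-0914 it was at 3.72, 2.45, 3.01 and 2.99 CPM (-0.62 ± 0.19, edgeR adjusted p = 0.0181), a call lost without M0 replicate 2 (-0.50, edgeR adjusted p = 0.0821) or M0 + ONX-0914 replicate 2 (-0.53, edgeR adjusted p = 0.0685). B cell markers, all 11 with counts in each group, summed to 40.8 to 45.9 CPM in M1 + ONX-0914 and 81.2 to 94.1 CPM in M1, to 61.0 to 68.7 CPM in M2 + ONX-0914 and 116 to 125 CPM in M2, and to 61.6 to 67.5 CPM in M0 + ONX-0914 and 109 to 118 CPM in M0. Of the 11, 9 were called lower with ONX-0914 in M1, 10 in M2 and 10 in M0, where 27.7%, 18.8% and 11.4% of all genes were. Their part in the change of Cxcl13 was not tested. In M2 + ONX-0914 Cxcl13 was at 2.2, 2.11, 3.38 and 3.32 CPM, against 3.62, 4.75, 3.29 and 3.57 CPM in M2, and missed the threshold (-0.47 ± 0.19, edgeR adjusted p = 0.0625). That change passed without M1 replicate 2 (edgeR adjusted p = 0.0377) or M2 + ONX-0914 replicate 3 or 4 (edgeR adjusted p = 0.0364 to 0.0425). It also passed with DESeq2 size factors (edgeR adjusted p = 0.046), in the DESeq2 Wald test (adjusted p = 0.0316), in the fit of M2 + ONX-0914 and M2 libraries alone (edgeR adjusted p = 0.0458) and with no filter on low counts (edgeR adjusted p = 0.048), with log2 changes of -0.58 to -0.46 over these settings.

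Pf4, platelet factor 4, was the one member above 5 CPM that no comparison called. It averaged 19.3 ± 0.74 CPM in M1 + ONX-0914, 17.7 ± 0.622 in M1, 17.6 ± 1.55 in M2 + ONX-0914, 17.4 ± 1.88 in M2, 18.3 ± 0.192 in M0 + ONX-0914 and 16.6 ± 1.87 in M0 (SD, n = 4 each). Among the comparisons made, the largest log2 change was 0.14 ± 0.08, with ONX-0914 in M0. Platelet and megakaryocyte markers summed to 1.40 to 7.03 CPM in every library, Gp1bb had no count, and Ppbp, which platelets also carry, had 1. The fit of M1 + ONX-0914 and M1 libraries alone called Pf4 higher, where all 4 libraries lay above those of M1 (log2 change 0.21, edgeR adjusted p = 0.0435).

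The remaining tested ligands, Ccl25, Ccl27a, Ccl28 and Cx3cl1, stayed under 6 CPM in every library. Cx3cl1, which anchors leukocytes that carry Cx3cr1, averaged 1.03 ± 0.214 CPM in M1 and 0.157 ± 0.0912 CPM in M0 and was called higher, and it was called lower in M1 + ONX-0914, at 0.36 ± 0.215 CPM. Ccl28, an epithelial chemokine, was called lower in M1, at 0.108 ± 0.108 CPM, and higher in M2, at 1.16 ± 0.154 CPM, against 0.466 ± 0.0255 CPM in M0. Without M1 replicate 1 the log2 change of Ccl28 in M1 was -2.77 in place of -2.02. Ccl25 was called higher in M1 and Ccl27a lower in M2, and the call of Ccl25 (log2 change 0.46, edgeR adjusted p = 0.0136) was lost without M1 replicate 1 (0.34, edgeR adjusted p = 0.0789). The values of both are uncertain, since their exons overlap Elavl1 (27014 counts) and Il11ra1 (117035 counts) on the other strand. Below the filter, Ccl20 had 83 counts over all libraries, Xcl1 23, Cxcl17 6, Ccl27 5, Ccl27b 2 and Ccl1 1.

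The receptors were mostly lower after polarization. Cxcr4, the receptor of Cxcl12, stood at 4.08, 2.84, 4.33 and 5.04 CPM in M1 and 81.6, 77.8, 71.7 and 78.7 CPM in M2, against 120, 105, 107 and 116 CPM in M0. All 3 states were apart, with log2 changes of -4.77 ± 0.11 in M1 (edgeR adjusted p = 1.4e-23) and -0.53 ± 0.08 in M2 (edgeR adjusted p = 8.91e-06). ONX-0914 raised Cxcr4 in M2, to 110, 90.8, 95.8 and 84.8 CPM in M2 + ONX-0914, above all M2 libraries (0.30 ± 0.08, edgeR adjusted p = 0.00569). It was at 4.7, 4.14, 5.16 and 4.98 CPM in M1 + ONX-0914 and 118, 109, 103 and 130 CPM in M0 + ONX-0914, overlapped the libraries without it and was not called (0.21 ± 0.15 in M1 and 0.04 ± 0.08 in M0).

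Ccr1, a receptor of Ccl3 and Ccl5 and of the rodent ligands Ccl6 and Ccl9, was the one member called in opposite directions under ONX-0914. It stood at 46.8, 56.6, 57.9 and 60.9 CPM in M1 + ONX-0914, against 44.4, 35, 41.8 and 45.1 CPM in M1, with no overlap (log2 change 0.42 ± 0.09, edgeR adjusted p = 0.000239). In M2 + ONX-0914 it was at 76.6, 74.7, 79.3 and 69.2 CPM, against 120, 120, 107 and 103 CPM in M2, again apart (-0.59 ± 0.08, edgeR adjusted p = 1.59e-06). In M0 + ONX-0914 it was at 104, 94, 87.6 and 82 CPM, against 101, 96.3, 96.3 and 99.1 CPM in M0, and was not called (-0.10 ± 0.08). The effect in M1 differed from that in M2 by 1.00 ± 0.12 (edgeR adjusted p = 9.42e-07) and from that in M0 by 0.51 ± 0.12 (edgeR adjusted p = 0.00225), and the effect in M2 from that in M0 by -0.49 ± 0.11 (edgeR adjusted p = 0.00772). Without ONX-0914, Ccr1 was lower in M1 than in M0 (-1.24 ± 0.08, edgeR adjusted p = 3.09e-13) and missed the threshold in M2 (0.20 ± 0.08, edgeR adjusted p = 0.0584). The M2 change passed without M1 replicate 2 (0.20, edgeR adjusted p = 0.0153), in the fit of M2 and M0 libraries alone (0.18, edgeR adjusted p = 0.00923), and without M0 + ONX-0914 replicate 1, M1 + ONX-0914 replicate 1 or M2 replicate 4 (0.20 to 0.24, edgeR adjusted p = 0.037 to 0.0487).

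Cxcr1, which binds ELR chemokines, was higher with ONX-0914 in all 3 states. It stood at 1.6, 1.68, 1.54 and 1.01 CPM in M1 + ONX-0914, against 0.318, 0.485, 0.462 and 0.755 CPM in M1 (log2 change 1.52 ± 0.26, edgeR adjusted p = 2.4e-05). Levels were 4.3, 3.62, 5.21 and 3.72 CPM in M2 + ONX-0914, against 2.39, 1.9, 2.25 and 2.31 CPM in M2 (0.92 ± 0.15, edgeR adjusted p = 2.03e-05). In M0 + ONX-0914 they were 13.2, 13.8, 14.4 and 17.6 CPM, against 10.2, 9.51, 10.4 and 10.6 CPM in M0 (0.54 ± 0.12, edgeR adjusted p = 0.00126). No pair of groups overlapped. The effect in M1 exceeded that in M0 by 0.99 ± 0.29 (edgeR adjusted p = 0.0155), a call lost without M1 replicate 1 (0.82, edgeR adjusted p = 0.055). Polarization lowered Cxcr1 in M1 (-4.32 ± 0.19, edgeR adjusted p = 2.17e-17) and in M2 (-2.20 ± 0.14, edgeR adjusted p = 6.83e-13). Its neighbour Cxcr2, the main receptor of the ELR chemokines, had no count in M1 + ONX-0914 or M1, against 141 counts in M0, which is at least 34.6-fold lower in M1 by a floor of 3 counts over the group. In M2 it averaged 0.512 ± 0.152 CPM, against 1.65 ± 0.207 CPM in M0 (-1.67 ± 0.30, edgeR adjusted p = 0.000137). Neutrophils carry both receptors. Of 11 neutrophil markers, 6 or 7 had counts in each group, while S100a9, Ly6g and Retnlg had none in any group, and 3 were tested. Their sum was 110.6 to 123 CPM in M1 + ONX-0914 and 140.6 to 161 CPM in M1, 71.4 to 92.8 CPM in M2 + ONX-0914 and 69.3 to 71.4 CPM in M2, and 50.7 to 64.0 CPM in M0 + ONX-0914 and 47.6 to 56.1 CPM in M0.

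The 3 tested neutrophil markers moved differently under ONX-0914. Mmp8, a collagenase of neutrophil granules, was higher in all 3 states, as Cxcr1 was, at 4.89 ± 1.32 CPM in M1 + ONX-0914 and 2.67 ± 0.892 CPM in M1 (log2 change 0.85 ± 0.19, edgeR adjusted p = 0.000688), 13.2 ± 1.52 CPM in M2 + ONX-0914 and 4.53 ± 0.287 CPM in M2 (1.54 ± 0.16, edgeR adjusted p = 8.04e-09), and 8.69 ± 0.397 CPM in M0 + ONX-0914 and 3.17 ± 0.542 CPM in M0 (1.45 ± 0.17, edgeR adjusted p = 2.51e-07). S100a8 averaged 7.30 CPM in M1 + ONX-0914 and 8.57 CPM in M1, where it was not called (-0.24 ± 0.17, edgeR adjusted p = 0.288), and was lower in M2 + ONX-0914 at 2.78 CPM, against 4.59 CPM in M2 (-0.73 ± 0.20, edgeR adjusted p = 0.00485), and in M0 + ONX-0914 at 2.88 CPM, against 4.63 CPM in M0 (-0.68 ± 0.19, edgeR adjusted p = 0.013). Csf3r, which made up most of the list's sum, averaged 103 ± 6.58 CPM in M1 + ONX-0914 and 138 ± 11.5 CPM in M1 (-0.41 ± 0.09, edgeR adjusted p = 0.000595), and was not called in M2 or M0. Their part in the changes of Cxcr1 was not tested.

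Ccrl2, an atypical receptor that binds the chemoattractant chemerin, was the most abundant receptor transcript per kilobase in M1. It stood at 1099, 1171, 1016 and 1084 CPM in M1 and 68.9, 65.7, 63.4 and 70 CPM in M2, against 211, 193, 192 and 198 CPM in M0. The states were apart, with log2 changes of 2.46 ± 0.06 in M1 (edgeR adjusted p = 3.14e-23) and -1.57 ± 0.06 in M2 (edgeR adjusted p = 1.64e-17). ONX-0914 lowered it to 150, 146, 132 and 159 CPM in M0 + ONX-0914, below all M0 libraries (-0.44 ± 0.06, edgeR adjusted p = 2.97e-06). In M1 + ONX-0914 it was at 879, 901, 955 and 999 CPM, below all M1 libraries (-0.23 ± 0.06, edgeR adjusted p = 0.00203). That call was lost in the fit of M1 + ONX-0914 and M1 libraries alone (-0.13, edgeR adjusted p = 0.125). In M2 + ONX-0914 it was at 64.9, 68.6, 62.9 and 64.2 CPM and was not called (-0.04 ± 0.06), and the effect in M2 differed from that in M0 by 0.40 ± 0.08 (edgeR adjusted p = 0.00334). The other 4 atypical receptors, Ackr1 to Ackr4, had 76, 4, 115 and 80 counts over all libraries and were below the filter.

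The remaining 7 tested receptors stayed under 5 CPM in every library and were named after their values were seen. Cxcr3, the receptor of Cxcl9 and Cxcl10, averaged 0.177 ± 0.0836 CPM in M1, 0.21 ± 0.0596 CPM in M2 and 1.64 ± 0.413 CPM in M0, and was called lower in both. It was called higher in M0 + ONX-0914, at 3.98 ± 0.279 CPM (log2 change 1.28 ± 0.19, edgeR adjusted p = 1.97e-05). T cell and natural killer cell markers, which mark cells that carry Cxcr3, summed to 1.71 to 2.42 CPM in M0 + ONX-0914 and 2.75 to 3.72 CPM in M0. Most of that sum was Lck, the 1 tested marker of the 12. It averaged 1.27 CPM in M0 + ONX-0914, 2.24 CPM in M0 and 19.2 CPM in M1. The part of these cells in the level of Cxcr3 was not tested. Ccr7, which guides cells to lymph nodes, averaged 0.405 ± 0.128 CPM in M1 + ONX-0914, 2.35 ± 0.325 CPM in M1 and 0.654 ± 0.324 CPM in M0. It was called higher in M1 (1.84 ± 0.31, edgeR adjusted p = 7.7e-06) and lower in M1 + ONX-0914 than in M1 (-2.54 ± 0.35, edgeR adjusted p = 9.69e-07). Its call in M2 + ONX-0914 (-1.56 ± 0.53, edgeR adjusted p = 0.0222) was lost without M2 replicate 2 or M2 + ONX-0914 replicate 3 or 4 (-1.47 to -1.16, edgeR adjusted p = 0.0543 to 0.0799). B cells carry Ccr7 and Cxcr5 too, and the fall of their markers with ONX-0914 is given beside Cxcl13; its part was not tested.

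Xcr1, which marks cross-presenting dendritic cells, and Ccr9, which guides cells to the gut, were called higher in M1 than in M0, at 0.919 ± 0.311 and 1.29 ± 0.124 CPM in M1, against 0.0732 ± 0.0851 and 0.223 ± 0.176 CPM in M0. The log2 change of Xcr1 was 3.59 ± 0.59 (edgeR adjusted p = 5.88e-06, and 4.64 without M0 replicate 2) and that of Ccr9 was 2.51 ± 0.36 (edgeR adjusted p = 6.96e-07, and 3.17 without M0 replicate 3). Dendritic cell markers, 6 of 8 with counts in M1 + ONX-0914 and 7 of 8 in M1, summed to 82.1 to 89.0 CPM in M1 + ONX-0914, 94.8 to 132 CPM in M1 and 59.5 to 73.8 CPM in M0, and their part in the level of Xcr1 was not tested. Ccr9 had 232 counts in all, and Gm17200, which overlaps it on the same strand, had 90. Cx3cr1, the receptor of Cx3cl1, was called lower in both M1 and M2, with a log2 change of -2.85 ± 0.68 in M1 (edgeR adjusted p = 0.000613) and -3.25 ± 0.67 in M2 (edgeR adjusted p = 0.000306), the second being -3.999 without M2 replicate 3. Cxcr5, the receptor of Cxcl13, was called lower in M1 + ONX-0914, M0 + ONX-0914 and M2, but Bcl9l overlaps its exons with 5620 counts, against 188 for Cxcr5. Its log2 change in M1 + ONX-0914 was -1.39 ± 0.44 (edgeR adjusted p = 0.0107), and -1.99 without M1 + ONX-0914 replicate 1. Its M0 + ONX-0914 call was lost without M0 replicate 2 or M0 + ONX-0914 replicate 4 (edgeR adjusted p = 0.0517 to 0.0543). Ccr2, the receptor of Ccl2, averaged 0.321 ± 0.0315 CPM in M2 + ONX-0914 and 0.669 ± 0.189 CPM in M2 and was called lower there, a call lost without M2 replicate 1 or 3 or M2 + ONX-0914 replicate 1 (edgeR adjusted p = 0.0546 to 0.0786). Below the filter, Cxcr6, the receptor of Cxcl16, had 177 counts, Ccr10 67, Ccr3 56, Ccr6 28, Ccr1l1 3, Ccr8 2 and Ccr4 2 over all 24 libraries.

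**Figure D3:**
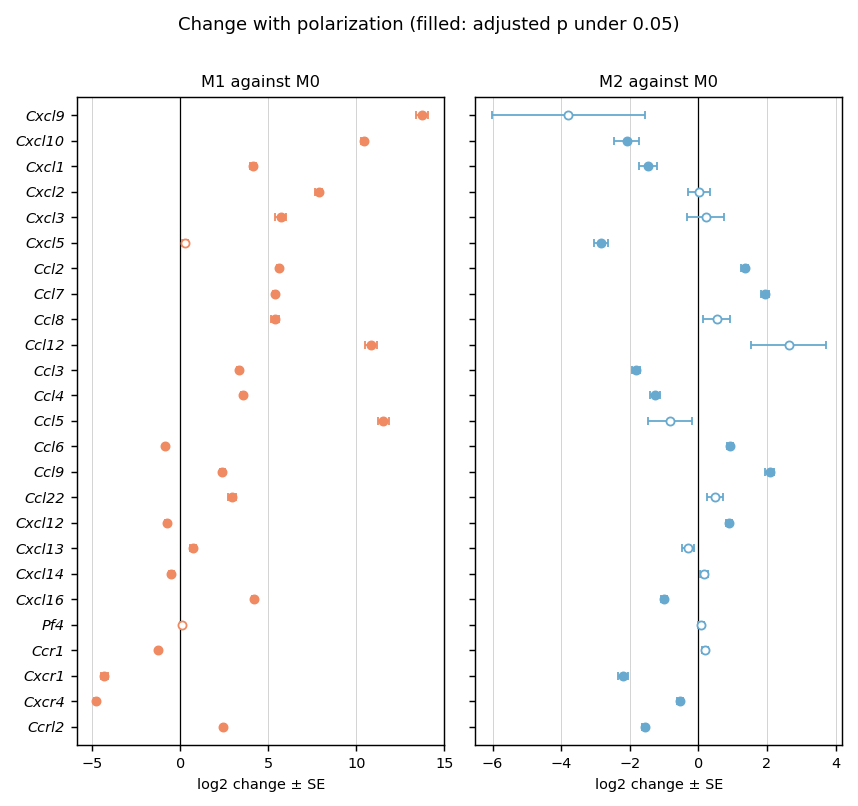
Log2 change with its SE (horizontal bars) of 25 members in M1 and in M2, each against M0, with filled points for adjusted p under 0.05. The 2 panels have different horizontal scales. Ccl2, Ccl7 and Ccl9 lie to the right of 0 in both panels, and Cxcl10, Cxcl1, Cxcl16 and Ccrl2 lie to the right in M1 and to the left in M2.

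Set side by side, the polarization contrasts placed the 40 tested members in all 9 possible combinations of higher, lower and not called. Of all genes tested, 68.8% were called either way in M1 and 36.2% in M2. The shares of all genes in each combination are not given here, so the counts do not set the family apart. Since both were measured against the same M0 libraries, the following counts describe the 2 contrasts and test no relation between them. Higher in both were Ccl2, Ccl7 and Ccl9, and lower in both were Cx3cr1, Cxcr1, Cxcr2, Cxcr3 and Cxcr4. Higher in M1 and lower in M2 were 6 members, Ccl3, Ccl4, Ccrl2, Cxcl1, Cxcl10 and Cxcl16. Lower in M1 and higher in M2 were 4 members, Ccl28, Ccl6 and Cxcl12 among them. Called in M1 alone were 13 members that were higher and 2 that were lower, and in M2 alone 2 that were higher and 3 that were lower, while Ccr2 and Pf4 were called in neither.

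**Figure D4:**
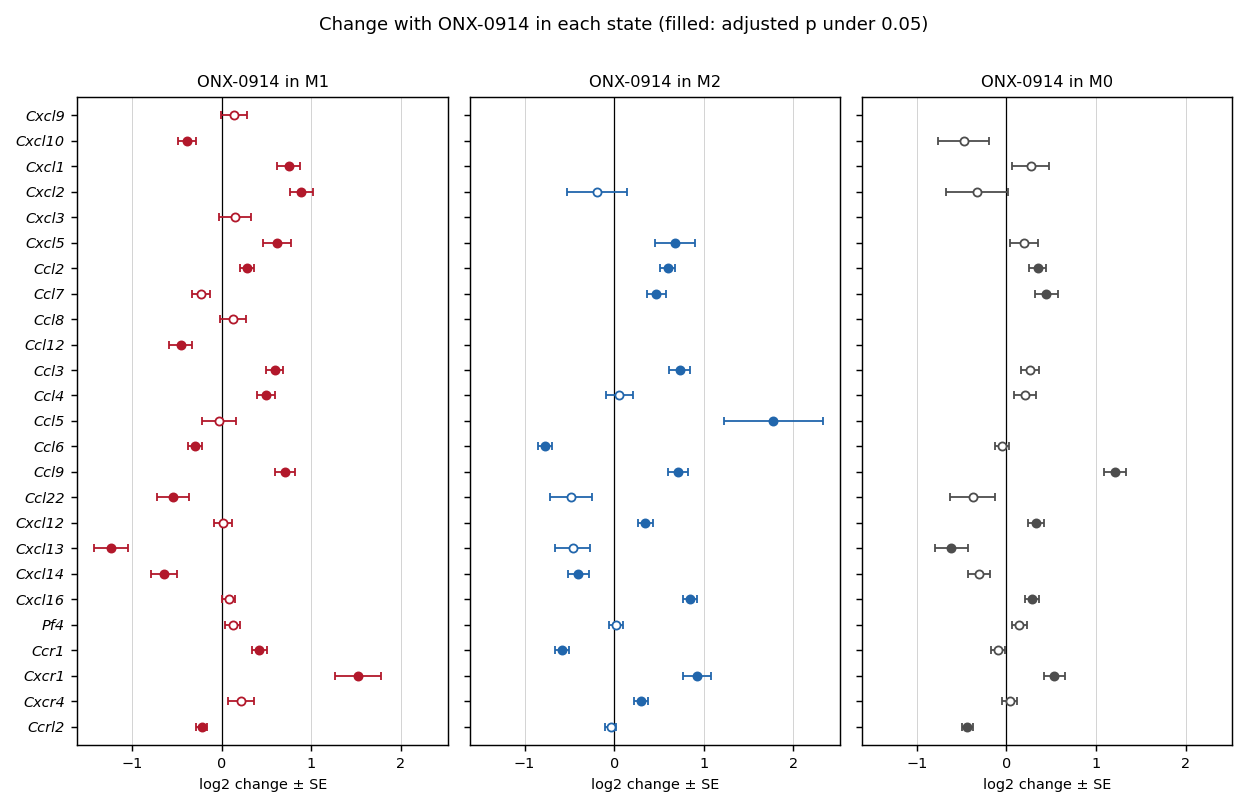
Log2 change with its SE (horizontal bars) of 25 members with ONX-0914 against the same state without it, on 1 scale for M1, M2 and M0, with filled points for adjusted p under 0.05. Members whose mean was under 1 CPM in both groups are left blank. Ccl2, Ccl9 and Cxcr1 lie to the right of 0 in all 3 panels, and Ccr1 changes side between M1 and M2.

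Across the 3 states, ONX-0914 called 4 members in all 3, 12 in 2, 11 in 1 and 13 in none. Of all genes tested, 44.3% were called in M1, 36.4% in M2 and 21.0% in M0. Their shares by number of states are not given here, so the counts do not set the family apart. Libraries with and without ONX-0914 did not overlap for 20 members in M1, 16 in M2 and 13 in M0, where this held for 36.0%, 39.2% and 26.9% of all genes tested. The difference in effect between M1 and M0 was called higher for 3 members and lower for 4, where 6.90% of all genes were called higher, 12.4% lower and 19.3% either way. Between M2 and M0 it was called higher for 2 and lower for 3, where 3.44% and 2.74% of all genes were so called and 6.17% either way. Between M1 and M2 it was called higher for 4 and lower for 3, where 3.80% and 9.68% were so called and 13.5% either way. Fitting only the 4 groups of the M1 and M2 contrast gave a median difference over all genes of 0.046, where the fit of all libraries gave -0.065, and called 885 genes higher and 647 lower, in place of 559 and 1422.

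Of the called differences, those of Ccr7 between M1 and M0 (-1.55 ± 0.55, edgeR adjusted p = 0.0475) and of Cxcl2 between M1 and M2 (1.08 ± 0.36, edgeR adjusted p = 0.0473) lay just inside the threshold, and each was lost in 17 of the 24 fits that left out 1 library (edgeR adjusted p up to 0.136 for Ccr7 and 0.141 for Cxcl2, the second being 0.0752 without M1 replicate 2). That of Cxcr3 between M1 and M0 (-1.86 ± 0.60, edgeR adjusted p = 0.0333) was lost without M1 replicate 1, 2 or 4 or M1 + ONX-0914 replicate 1 (-1.82 to -1.59). That of Ccl5 between M1 and M2 (-1.81 ± 0.59, edgeR adjusted p = 0.0401) fell to -0.58 (edgeR adjusted p = 0.453) without M2 + ONX-0914 replicate 4, and it was also lost in the fits without M1 + ONX-0914 replicate 1, 2 or 3 or M2 replicate 1, 3 or 4.

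Without M1 replicate 2, further differences in the ONX-0914 effect that had missed the threshold passed it. Between M1 and M0 these were Ccl3 (0.36, edgeR adjusted p = 0.0499), Ccl4 (0.40, edgeR adjusted p = 0.0244), Ccrl2 (0.25, edgeR adjusted p = 0.0121) and Cxcl13 (-0.73, edgeR adjusted p = 0.0318). Between M2 and M0 they were Ccl3 (0.47, edgeR adjusted p = 0.0493), Ccl5 (2.48, edgeR adjusted p = 0.0196), Ccl9 (-0.49, edgeR adjusted p = 0.0336) and Ccl11 (3.23, edgeR adjusted p = 0.0425), and between M1 and M2 Ccl4 (0.55, edgeR adjusted p = 0.0197) and Cxcl13 (-0.88, edgeR adjusted p = 0.0155). With all libraries their edgeR adjusted p lay between 0.0564 and 0.225.

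Transcripts of the signalling machinery behind the receptors were called lower with ONX-0914 more often than higher in each state, and in M0 most were not called. Of 45 tested genes of a list of G proteins, receptor kinases, arrestins, regulators of G-protein signalling, phosphoinositide 3-kinases, Rac exchange factors, Src family kinases and a few other transducers, 2 were called higher and 30 lower in M1 + ONX-0914, 3 higher and 24 lower in M2 + ONX-0914, and 2 higher and 12 lower in M0 + ONX-0914. Of all genes tested, 16.6% were called higher and 27.7% lower in M1, 17.6% and 18.8% in M2, and 9.54% and 11.4% in M0. The list's median log2 change was -0.30 in M1, -0.20 in M2 and -0.16 in M0, against -0.081, -0.001 and -0.001 over all genes. Fitting M1 + ONX-0914 and M1 libraries alone gave 2 of the list higher and 19 lower, with a median of -0.20, where 2481 of all genes were higher and 2303 lower with a median of 0.013. In M0 the count of lower genes was 20 in the fit of M0 + ONX-0914 and M0 libraries alone and 22 without M1 replicate 2. The Src family kinase Fgr averaged 20.7 ± 0.78 CPM in M1 + ONX-0914 and 64.6 ± 7.95 CPM in M1 (log2 change -1.64 ± 0.10, edgeR adjusted p = 2.1e-13), and 8.58 ± 0.75 CPM in M2 + ONX-0914 and 16.8 ± 2.17 CPM in M2 (-0.97 ± 0.11, edgeR adjusted p = 5.6e-08). Rgs1, a regulator of G-protein signalling, was higher in M0 + ONX-0914 (0.57 ± 0.11, edgeR adjusted p = 0.00023).

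Polarization changed the same list in both directions. In M1, 24 of its 45 tested genes were called higher and 15 lower than in M0, where 34.6% of all genes were called higher, 34.2% lower and 68.8% either way. Arrb1, an arrestin that ends receptor signalling, averaged 21.2 ± 1.88 CPM in M1 and 182 ± 11.6 CPM in M0 (-3.11 ± 0.07, edgeR adjusted p = 4.4e-24). In M2, 6 were called higher and 23 lower, where 18.7% of all genes were called higher and 17.5% lower, with the Rac exchange factor Tiam1 highest by fold (1.60 ± 0.11, edgeR adjusted p = 9.2e-12) and the chemokine-cleaving peptidase Dpp4 lowest (-1.07 ± 0.22, edgeR adjusted p = 0.00028).

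Receptors for other chemoattractants were described from a list of 20 genes, 15 of them tested. ONX-0914 called 11 of them lower in M1, 8 lower and 1 higher in M2, and 5 lower in M0, where 27.7%, 18.8% and 11.4% of all genes were called lower. The list's median log2 change was -0.81 in M1, -0.54 in M2 and -0.13 in M0. The formyl peptide receptors stood out in M1. Fpr2 averaged 41.1 ± 1.43 CPM in M1 + ONX-0914, 106.5 ± 4.24 CPM in M1 and 0.147 ± 0.0913 CPM in M0, with log2 changes of -1.37 ± 0.07 for ONX-0914 in M1 (edgeR adjusted p = 1.8e-13) and 9.40 ± 0.14 for M1 against M0 (edgeR adjusted p = 1.6e-25). Fpr1 averaged 4.62 ± 0.835 CPM in M1 + ONX-0914, 23.1 ± 1.41 CPM in M1 and 0.135 ± 0.0854 CPM in M0 (-2.33 ± 0.16 for ONX-0914 in M1, edgeR adjusted p = 1.4e-11). Cmklr1, the receptor of chemerin, fell with ONX-0914 by 1.52 ± 0.09 in M1, 1.56 ± 0.10 in M2 and 1.09 ± 0.10 in M0 on the log2 scale. Polarization called 8 of the 15 higher and 5 lower in M1, and 6 higher and 6 lower in M2. Of all genes, 34.6% were called higher and 34.2% lower in M1, and 18.7% and 17.5% in M2. In M2, Gpr183, a receptor for oxysterols, was among the most raised of the list (2.55 ± 0.13, edgeR adjusted p = 6.1e-15).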

How the data were processed

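RNA sequencing counts were analysed for 24 libraries of mouse peritoneal macrophages in 6 groups of 4. The authors deposited whole-number read counts per gene for all samples in 1 table. Per the submitters' processing notes, FastQC 0.11.9, cutadapt 2.8, Bowtie2 2.2.5, Picard and the build mm10 were used. No source used here names the counting tool, its strand setting or its annotation release. Gene identifiers were matched to GENCODE M21 on GRCm38: 54495 of 54532 features had a symbol, and the 37 without one held 0.00253% of the counts. Counts of genes with overlapping exons may therefore share reads. Genes were filtered with edgeR's filterByExpr over the 6 groups, scaled by TMM and fitted with edgeR 4.0.16 (R 4.3.3) in 1 quasi-likelihood model over all 24 libraries with 18 residual degrees of freedom. The contrasts were ONX-0914 within M1, M2 and M0, M1 and M2 each against M0, and the differences between the ONX-0914 effects. P-values were adjusted by Benjamini-Hochberg over 14692 genes. The procedure was tested on simulated counts with known changes. DESeq2 1.42.0, its size factors within edgeR, no filter on low counts, a replicate block, fits of the compared groups alone and fits without each library in turn were the alternatives. Same-numbered libraries were not treated as pairs. Their deviations from the group means correlated between -0.083 and 0.127, which does not exclude shared pools or days. Members and gene lists were chosen with earlier results of these data known. Members with a mean of at least 5 CPM in 1 group and at least 1 called comparison, 24 of them, were given library by library, and some results are not reported here. Of other lists, up to 4 called genes with the largest changes per comparison could be named. Depth of 18230924 to 22882972 counts per library limits members under about 1 CPM, and intervals and floors (3 counts over a group) cover counting error only. Promoter windows came from RefSeq.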

Additional observations from a re-analysis of the deposited data

Results flagged for a closer look

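Within groups of 4 libraries, a library was picked out where its gap to the nearest other library took a larger share of the group's range than Dixon's 95% critical value allows. Chance picks out about 1 in 20 groups, and 6 of 125 screened were picked out. In M1, replicate 2 was high for Cxcl16 (862 CPM) and Ccl5 (3824 CPM). In M1 + ONX-0914, replicate 3 was high for Ccl2 (1580 CPM). In M2 + ONX-0914, replicate 4 was high for Ccl5 (4.76 CPM). In M2, replicate 2 was high for Ccl9 (133 CPM) and replicate 3 was low for Ccl22 (2.64 CPM). The effect of ONX-0914 differed between states, by edgeR's test of the difference itself, in the 17 cases given here. Between M1 and M0 the log2 differences were 0.99 for Cxcr1, 1.22 for Cxcl2, 0.51 for Ccr1, -0.68 for Ccl7, -0.50 for Ccl9, -1.55 for Ccr7 and -1.86 for Cxcr3. Between M2 and M0 they were 0.56 for Cxcl16, 0.40 for Ccrl2, -0.72 for Ccl6 and -0.49 for Ccr1. Between M1 and M2 they were 1.08 for Cxcl2, 1.00 for Ccr1, 0.47 for Ccl6, -0.77 for Cxcl16, -0.71 for Ccl7 and -1.81 for Ccl5.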

How the results depend on the processing

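No member's called change reversed under any alternative run. The counts of members called higher or lower in M1 against M0, in M2 against M0 and with ONX-0914 in M1 and M2 stayed within 1.5 times their values under every alternative. Counts of members whose ONX-0914 effect differed between states were small and moved. For M1 minus M0, the 3 called higher became 5 with no filter on low counts, and the 4 called lower became 2. For M2 minus M0, the 2 called higher became 4 with the DESeq2 Wald test, 5 in the fit of the compared groups alone and 4 with no filter. For M1 minus M2, the 3 called lower became 5 with no filter. Leaving out 1 library at a time gave 2 to 6 higher and 1 to 5 lower for M1 minus M0, 2 to 5 higher for M2 minus M0, 2 to 5 higher and 2 to 5 lower for M1 minus M2, and 2 to 6 lower for ONX-0914 in M0. The cause was not tested. A fit with the replicate number as a block gave the same call in 318 of 320 member results, and the other 2 were now called, Ccl6 (-0.26, edgeR adjusted p = 0.0185) and Ccrl2 (0.21, edgeR adjusted p = 0.049) for M1 minus M0. Whether the numbers pair the libraries is not known. Over all genes, the split of higher and lower calls for M1 minus M0 was 1305 and 1040 in the fit of the compared groups alone, against 1014 and 1820 in the fit of all libraries. That fit gave 721 and 869 for M2 minus M0, against 505 and 402. For M1 minus M2 it was 716 and 1110 with DESeq2 size factors and 794 and 1242 with the DESeq2 Wald test, against 559 and 1422. Depth limits members under about 1 CPM, where 1 library can decide a call.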
